A study of Mus musculus with 5 samples.

Results

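Clone 1D is 1 of 5 clones of mouse cardiac progenitor cells whose RNA was measured on Affymetrix expression arrays. It was set against the other 4, clones 11B, 20B, 30 and 42. Log2 values were averaged over the measured probe sets of a gene, a probe set being the group of short probes that reads a transcript. The median of the other 4 clones was then subtracted from the value of clone 1D, so a positive difference means higher in clone 1D. For a single probe set the same subtraction was made on its own log2 values. Of 18193 named genes on the array, 9435 were measured, with a probe set that varied over the clones, 6388 of them through 1 probe set and 3047 through 2 or more. Each clone was measured on 1 array, so no difference has a replicate check and no test was made. Differences are described by their size, 1 log2 unit (2-fold) or 0.5 log2 units (1.41-fold), and by whether the probe sets of a gene gave the same answer.

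All 5 clones were grown from left ventricles of adult mice 5 to 6 months old, of the strain that the labels spell C67BL/6. The cells were selected with an antibody to Sca-1, expanded, cloned with rings and subcloned by dilution, and they are labelled as c-kit+ cardiac progenitor cells. No treatment, genotype or time separates the clones, and the study's title sets out to relate their differences in SDF-1 production to their capacity to form vessels. Clone 1D is a single cultured line measured once, so a difference between clones cannot be told apart from a difference between cultures, RNA preparations or arrays.

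Cardiac progenitor cells of this kind are non-muscle cells of the adult heart that divide in culture, and they are studied largely for the factors they secrete. Sca-1, encoded by Ly6a, and c-kit, encoded by Kit and the receptor for stem cell factor, are the surface proteins used to select them. SDF-1, encoded by Cxcl12, is a chemokine that attracts cells bearing the receptor Cxcr4 and takes part in vessel growth. Cells cloned from 1 tissue can keep different expression states in culture.

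The deposited values were ratios, with a median over the 5 arrays of exactly 1 for 18926 of 45101 probe sets and below 1 for the other 26175. A ratio of 1 is therefore the middle of the probe set's own values or a floor, and the values carry differences between clones but no level that could be compared between genes. The number of arrays limits the precision. Among 6681 pairs of probe sets that read the same gene, the clone 1D differences disagreed with a standard deviation of 0.46 log2 units, which corresponds to 0.33 for a single probe set. The 18 hybridization control probe sets, which carry array error only, had a standard deviation of 0.08. Neither error covers culture or RNA preparation. The deposited value of the 5′ Actb control probe set divided by that of the 3′ one was 1.08 in clone 1D, against 0.597 to 1.08 in the other clones. For Gapdh this quotient was 1.16 in clone 1D, against 0.924 to 1.08. Both values in a quotient are already ratios to a median or a floor. The quotients therefore order the arrays by this sign of RNA integrity and do not measure the integrity itself. The 18S control probe sets had ratios of 1.013 to 1.569 in clone 1D, against 0.411 to 1.274, and the lowest poly-A spike control was 0.366 in clone 1D, against 0.510 in the next lowest clone. Clone 1D thus had the highest 5′ to 3′ quotients, for Actb by little, and the highest single 18S and lowest single poly-A value of the 5 arrays. These single values did not hold for the controls as sets. Over the 24 poly-A control probe sets the median log2 value was -0.21 in clone 1D and lower, -0.40, in clone 42. The lowest 18S value was 1.013 in clone 1D and higher, 1.222, in clone 20B. The part of RNA integrity and of these controls in the differences was not tested. In such bulk RNA, fewer cells of a type and less RNA per cell cannot be told apart.

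The labelled identity could be checked only in part. Kit had a ratio of 1.002 in clone 1D, against 1.000, 1.183, 0.991 and 0.997 in clones 11B, 20B, 30 and 42, and its other probe set lay between 0.614 and 0.618 in all 5. Clone 1D thus sat with clones 11B, 30 and 42 in Kit. The probe set of Pou5f1, which encodes the pluripotency factor Oct-4 that the labels name as a marker, was flat at 0.576 in clone 1D, against 0.572 to 0.580 in the other clones. No probe set carried Ly6a as its only symbol. Because the values are ratios, they do not show whether any of these genes was expressed.

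Clone 1D had more genes above the middle of the other clones than below it, at the sizes counted here. In 86 of 9435 genes (0.911%) it lay at least 1 log2 unit above the median of clones 11B, 20B, 30 and 42. Only genes with a probe set whose median over the arrays was exactly 1 could count as lower, and 30 of these 8645 genes (0.347%) lay at least 1 log2 unit below. At 0.5 log2 units, 526 genes (5.57%) lay above and 219 (2.53%) below. Most of the transcriptome stayed close, since 92.1% of genes lay within 0.5 log2 units of the median of the other clones and the median difference over all genes was 0.0014. The same counts at 1 log2 unit, higher and lower, were 64 and 76 for clone 11B, 49 and 17 for clone 20B, 118 and 158 for clone 30, and 84 and 93 for clone 42. At 0.5 log2 units clone 42 also had more higher than lower genes, 602 and 365.

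**Figure D1:**
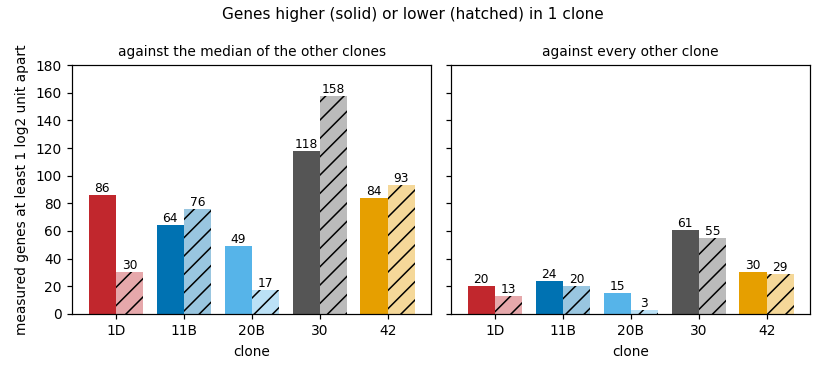
Measured genes (y axis, number) at least 1 log2 unit higher (solid bars) or lower (hatched bars) in each clone (x axis), against the median of the other clones on the left and against every other clone on the right. Clone 1D had 86 higher and 30 lower genes against the median, and 20 and 13 against every clone.

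A stricter count asks for a gap of at least 1 log2 unit to the nearest other clone. Clone 1D lay that far above every other clone in 20 genes (0.212%) and that far below every other clone in 13 (0.15%). Of the 86 genes above the median, 76 were highest in clone 1D, and of the 30 below, 26 were lowest in it. The nearest other clone to the 86 was 20B for 41 genes, 42 for 29, 11B for 9 and 30 for 7. With clone 20B left out, 141 genes lay above the median of the remaining clones and 39 above each of them; without clone 42, 111 and 31 did. For the 30 genes below, the nearest was clone 42 for 11, 20B for 10, 11B for 7 and 30 for 2. Only 22 of the 86 genes above had more than 1 measured probe set, of which 21 had all of them on the same side and 5 had all of them past 1 log2 unit. Among the 30 below, 11 had more than 1, all 11 had them on the same side and 3 had all past 1 log2 unit. Over all genes with 2 or more measured probe sets, 1543 of 3047 had them on the same side. The 86 and 30 genes were picked by the mean of these same probe sets. Their agreement on the side is thus largely set by the rule and is no separate check. In 9 of the 20 genes above every clone and 2 of the 13 below, at least 3 of the other clones lay within 0.02 log2 units of their median, which can be a floor that they share.

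**Figure D2:**
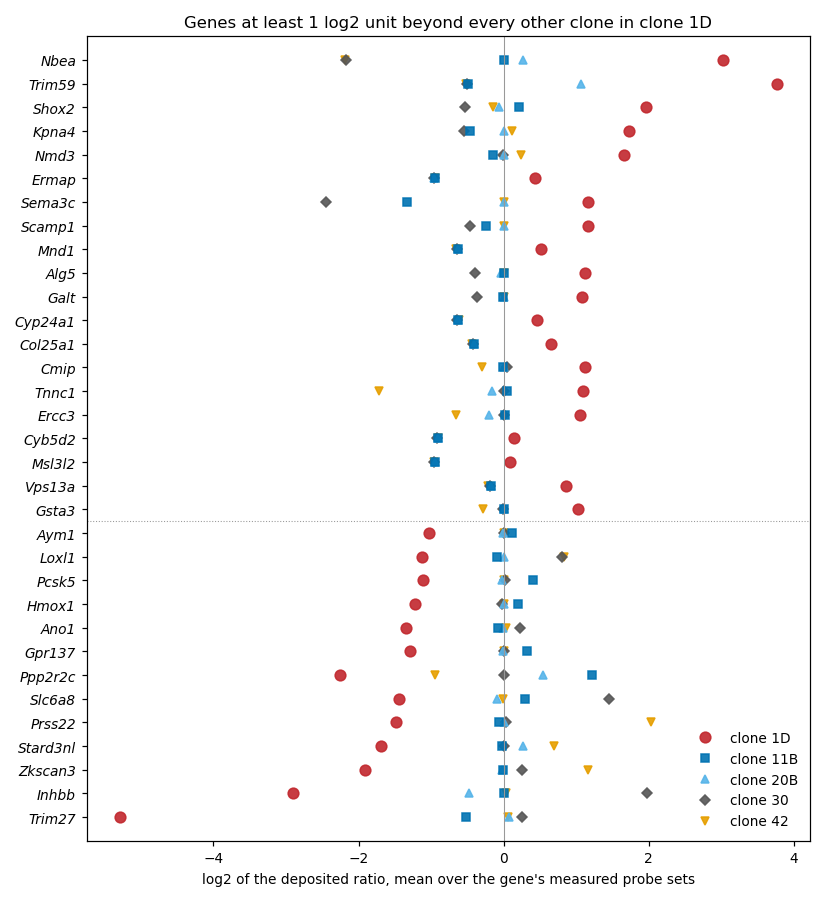
Log2 of the deposited ratio (x axis), averaged over the measured probe sets, in the 5 clones for the 20 genes above and the 13 genes below every other clone by at least 1 log2 unit (y axis, ordered by the gap to the nearest clone). Clone 1D stands to the right of all others in the upper block and to the left in the lower block, and the values of Nbea in clones 30 and 42 nearly coincide.

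Nbea and Trim59 were the genes farthest above the other clones. Nbea encodes neurobeachin, a scaffold protein with a BEACH domain that binds protein kinase A and takes part in membrane traffic. Its single probe set had a ratio of 8.145 in clone 1D, against 1.000, 1.206, 0.222 and 0.219 in clones 11B, 20B, 30 and 42. The difference of 4.11 log2 units (17.3-fold) therefore joins a high value in clone 1D with low values in clones 30 and 42. The gap to the nearest clone, 20B, was 6.75-fold. Of the other BEACH domain genes on the array, 4 were measured, and none lay more than 0.06 log2 units from the median of the other clones. Trim59, a tripartite motif ubiquitin ligase, had a ratio of 13.670 in clone 1D on 1 probe set, against 0.713, 2.088, 0.706 and 0.696 in clones 11B, 20B, 30 and 42. Clones 11B, 30 and 42 lay together near 0.7 and clone 20B above them, so the 19.3-fold difference is set against what may be a floor. That probe set is of a kind that may also read other transcripts, and the other Trim59 probe set was flat, with 1.004 in clone 1D and 0.998 to 1.005 elsewhere.

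Shox2, Kpna4 and Nmd3 were higher on each of 2 probe sets. Shox2 encodes a homeodomain factor required for the sinus node, the pacemaker of the mouse heart. Its probe sets gave 4.242 and 3.551 in clone 1D, against 0.822 to 1.187 and 0.522 to 1.120 in the other clones. The 2 differences, 2.15 and 1.90 log2 units, lay closer together than the error of a probe set pair, and the gene was 4.17-fold higher. Kpna4, an importin alpha adaptor that carries proteins into the nucleus, had ratios of 4.379 and 2.517 in clone 1D, against 0.512 to 1.184 and 0.842 to 1.021 in the other clones. Nmd3, the adaptor that exports the large ribosomal subunit from the nucleus, had 3.572 and 2.795 in clone 1D, against 0.863 to 1.241 and 0.951 to 1.120. In both genes all other clones lay below clone 1D on both probe sets. The Nmd3 probe set with 2.795 in clone 1D is of the kind that may also read other transcripts. A further 2 probe sets of Nmd3 were flat in all clones.

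Another 2 genes passed 1 log2 unit on 3 probe sets each. Smc2, a core subunit of the condensin complex that compacts chromosomes in mitosis, lay 2.07, 1.42 and 1.24 log2 units above the other clones' median. Its ratios were 3.941, 2.332 and 2.125 in clone 1D, against 1.621, 1.450 and 1.189 in clone 20B, the nearest. The remaining Smc2 probe sets were flat or at the floor. Tiparp, a mono-ADP-ribosyltransferase induced by the aryl hydrocarbon receptor, lay 1.99, 1.65 and 1.09 log2 units above. Its difference partly reflects low values in clones 11B and 30: the first probe set gave 2.424 in clone 1D, against 0.204, 1.000, 0.370 and 1.001 in clones 11B, 20B, 30 and 42. Without clone 11B the difference was 0.96. The Smc2 probe set at 1.24 and the Tiparp probe set at 1.09 are of the kind that may also read other transcripts.

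Single probe sets carried most of the remaining higher genes. The other probe sets of Sema3c, Alg5, Gsta3, Cmip and Scamp1 were flat or at the floor. Sema3c, a secreted semaphorin needed for the outflow tract of the heart, had a ratio of 2.245 in clone 1D, against 0.397, 1.003, 0.183 and 1.000 in clones 11B, 20B, 30 and 42. Tnnc1, which encodes the troponin C of cardiac and slow skeletal muscle, had 2.136 in clone 1D, against 1.032, 0.896, 1.000 and 0.304. Clone 1D was the highest of the 5 in both, and clone 30 the lowest in Sema3c and clone 42 in Tnnc1. Alg5, a glucosyltransferase of N-glycan assembly, had 2.185 in clone 1D, against 0.763 to 1.005 in the others. Galt, an enzyme of galactose breakdown, had 2.115 in clone 1D, against 0.773 to 1.000. Ercc3, a helicase subunit of the transcription and repair factor TFIIH, had 2.085 in clone 1D, against 0.636 to 1.009. These 3 genes shared a pattern in which clone 1D stood alone and the others lay near or below 1. Gsta3, a glutathione transferase, Cmip and Scamp1 were 2.05-, 2.17- and 2.43-fold higher.

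For 8 of the 20 genes, Trim59 among them, the measured probe set was divided by a floor and not by its own median. Ermap, named for the erythroblast membrane, had a ratio of 1.352 in clone 1D, against 0.512 to 0.520 in the other clones. Cyp24a1, the mitochondrial enzyme that inactivates vitamin D, had 1.374 in clone 1D, against 0.640 to 0.650. Mnd1, which acts in meiotic recombination, had 1.433 in clone 1D, against 0.636 to 0.648. In each the other 4 clones were nearly equal, and clone 1D alone lay over a ratio of 1. These genes thus counted as measured only through clone 1D. Vps13a, Col25a1, Cyb5d2 and Msl3l2 had the same form, with 1.04 to 1.08 log2 units. With values under the floor raised to it, 13 genes in place of 20 lay above every clone.

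Several genes were far above the median of the other clones without standing apart from each of them. Lama5, the alpha 5 chain of basement membrane laminins, had a ratio of 3.161 in clone 1D, against 1.000, 2.126, 0.116 and 0.151 in clones 11B, 20B, 30 and 42. Its remaining probe sets were flat, and its difference of 3.02 log2 units fell to 1.03 with every probe set averaged. Cd81, a tetraspanin of the cell surface, had 1.002 in clone 1D, against 1.000, 3.481, 0.048 and 0.048. The Cd81 difference of 2.19 log2 units thus arose from clones 30 and 42, since clone 1D equalled clone 11B and lay under clone 20B, and without clone 30 it was 0.0029. Nans, a synthase of sialic acid, had 1.999 in clone 1D, against 0.187, 1.139, 0.291 and 1.000. Galnt1, which starts mucin-type O-glycans, had 3.594 in clone 1D, against 0.997, 1.850, 0.765 and 1.000. Both were highest in clone 1D, with clone 20B next, and the other probe set of each gene was flat. Slc39a6, a zinc transporter, gave 6.499 and 3.448 in clone 1D on a pair of probe sets, against 3.543 and 2.204 in clone 20B and at most 1.000 in the rest, while its other 2 probe sets lay within 0.01 log2 units of the median. The Slc39a6 probe set with 3.448 in clone 1D is of the kind that may also read other transcripts. Ptbp2, Bmyc and Tbc1d23 were 3.53-, 3.53- and 3.22-fold above the median, and the remaining probe sets of Ptbp2 and Tbc1d23 were flat. Bmyc was as high in clone 42 (2.874 in clone 1D, against 2.923). Tbc1d23 was nearly as high in clone 20B (3.217 in clone 1D, against 2.878).

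Trim27 was the gene farthest below the other clones. It encodes a tripartite motif ubiquitin ligase, as Trim59 does. Its 3 measured probe sets gave 0.014, 0.015 and 0.075 in clone 1D, against 0.649 to 1.152, 0.682 to 1.227 and 0.759 to 1.236 in the other clones. Clone 1D lay 6.20, 6.11 and 3.73 log2 units lower, and no other clone overlapped with it. All 3 are of the kind that may also read related transcripts or several transcripts of a gene, and the other 3 probe sets of Trim27 were flat. Inhbb, which encodes the beta B subunit of activin and inhibin, had a ratio of 0.134 in clone 1D, against 1.000, 0.716, 3.939 and 1.027 in clones 11B, 20B, 30 and 42. It was 7.56-fold lower in clone 1D than the median and highest in clone 30, and its other probe set was flat at the floor.

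Some genes of the same part of chromosome 13 as Trim27 were also low, though not most of them. Zkscan3, a zinc finger protein that represses autophagy genes in human cells, had 0.078 in clone 1D on 1 probe set, against 1.000, 0.965, 1.428 and 1.949 in clones 11B, 20B, 30 and 42. That probe set is also of the kind that may read other transcripts. The other measured probe set of Zkscan3 gave 0.899 in clone 1D, against 0.994 to 2.558, so the probe sets disagreed by far more than their usual error. Stard3nl, a protein of late endosomes, had 0.311 in clone 1D, against 0.981, 1.198, 1.000 and 1.622. Rala, a small GTPase of the exocyst pathway, lay 1.74 and 1.12 log2 units below on its 2 measured probe sets; its ratios were 0.328 and 0.575 in clone 1D, against 0.445 and 0.563 in clone 11B, which was thus nearly as low or lower. All 4 genes lie on chromosome 13.

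The other genes below every clone had varied roles. Slc6a8, the creatine transporter, had 0.330 and 0.413 in clone 1D on 2 probe sets, against 0.712 to 2.592 and 0.884 to 2.887 in the other clones. Ano1, a calcium-activated chloride channel, had 0.292 and 0.530 in clone 1D, against 0.896 to 1.324 and 0.992 to 1.027. Both probe sets of each gene were lowest in clone 1D. The Ano1 probe set with 0.292 is of the kind that may also read other transcripts. Without probe sets of this kind Ano1 lay 0.92 log2 units below the median of the other clones. Ppp2r2c, a regulatory subunit of protein phosphatase 2A, had 0.210 in clone 1D, against 2.322, 1.453, 1.000 and 0.520 in clones 11B, 20B, 30 and 42. Loxl1, an enzyme that crosslinks elastin, had 0.458 in clone 1D, against 0.940, 1.000, 1.743 and 1.788. Hmox1, heme oxygenase 1, had 0.430 in clone 1D, against 1.148, 1.000, 0.986 and 1.001. The other clones were nearly level in Hmox1 and spread widely in Ppp2r2c. Prss22, a serine protease, Pcsk5, a proprotein convertase, Gpr137 and Aym1 were 2.84-, 2.17-, 2.45- and 2.04-fold lower. The remaining probe sets of Ppp2r2c, Loxl1 and Pcsk5 were flat or at the floor.

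Clone 42 shared some of the lowest values. Sarnp, which takes part in mRNA export, had 0.040 and 0.063 in clone 1D on a pair of probe sets, against 0.041 and 0.084 in clone 42 and 1.000 to 2.791 in the rest. The Sarnp probe set with 0.063 in clone 1D is of the kind that may also read other transcripts. The remaining Sarnp probe set gave 0.922 in clone 1D, against 0.507 to 1.659 in the other clones. Foxc2, a forkhead factor of vessel and lymphatic development, had 0.188 in clone 1D, against 1.449, 1.000, 2.040 and 0.305 in clones 11B, 20B, 30 and 42. Slc29a1, a nucleoside transporter, and Cst6, a cystatin, were lower still in clone 42. Rhob, a small GTPase, had 0.501 in clone 1D, against 0.624, 1.000, 3.411 and 1.907, with clone 11B nearest.

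**Figure D3:**
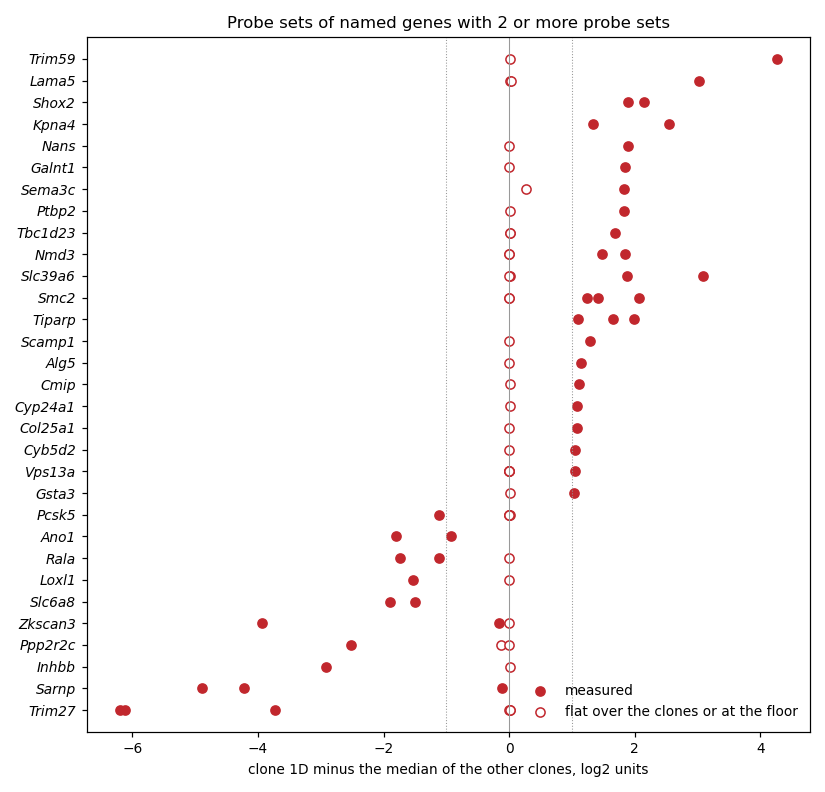
Difference of clone 1D from the median of the other clones (x axis, log2 units) for each probe set of the named genes that have 2 or more (y axis, ordered by the gene's difference). Filled points are measured probe sets and open points are flat or at the floor; Shox2, Kpna4, Nmd3, Smc2, Tiparp, Slc6a8, Rala and Trim27 have all measured points past 1 log2 unit, and Zkscan3, Sarnp and Slc39a6 have measured points both near 0 and past 1.

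The promoters of 5 of the genes set farthest apart are shown. Nbea, Trim59 and Shox2 were chosen because they were high together within 1 stretch of 47 measured genes on chromosome 3. Trim27 and Inhbb were chosen for the largest gaps below every other clone. Of the 33 genes beyond every clone, 25 had a promoter in the RefSeq table. Sequences are 300 bases around the annotated start on the strand of the gene, from RefSeq on GRCm38.p6: chr3:56183652-56183951 (minus strand) for Nbea, chr3:69044693-69044992 (minus) for Trim59, chr3:66981722-66982021 (minus) for Shox2, chr13:21179681-21179980 (plus) for Trim27 and chr1:119422199-119422498 (minus) for Inhbb. Capitals mark matches on either strand to the TATA box, spelled TATAAA, the CCAAT box, spelled with those 5 letters, or the GC box, spelled GGGCGG.
Nbea: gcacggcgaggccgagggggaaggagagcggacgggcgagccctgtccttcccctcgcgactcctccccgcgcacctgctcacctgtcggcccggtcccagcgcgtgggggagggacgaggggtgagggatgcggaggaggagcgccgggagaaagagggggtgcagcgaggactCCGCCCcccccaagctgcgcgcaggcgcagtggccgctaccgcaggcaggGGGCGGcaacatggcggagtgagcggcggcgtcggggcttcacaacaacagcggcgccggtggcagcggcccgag
Trim59: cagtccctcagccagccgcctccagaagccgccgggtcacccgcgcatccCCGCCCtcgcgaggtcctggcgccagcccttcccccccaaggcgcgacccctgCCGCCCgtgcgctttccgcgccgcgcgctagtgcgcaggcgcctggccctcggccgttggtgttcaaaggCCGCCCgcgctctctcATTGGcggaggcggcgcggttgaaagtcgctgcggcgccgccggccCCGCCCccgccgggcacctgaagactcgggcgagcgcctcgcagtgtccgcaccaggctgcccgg
Shox2: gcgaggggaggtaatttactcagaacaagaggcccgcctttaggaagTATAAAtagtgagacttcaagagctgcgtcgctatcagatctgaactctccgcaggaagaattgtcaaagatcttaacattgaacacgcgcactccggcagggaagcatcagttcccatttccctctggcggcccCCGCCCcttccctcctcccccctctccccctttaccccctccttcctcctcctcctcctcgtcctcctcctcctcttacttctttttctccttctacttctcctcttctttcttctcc
Trim27: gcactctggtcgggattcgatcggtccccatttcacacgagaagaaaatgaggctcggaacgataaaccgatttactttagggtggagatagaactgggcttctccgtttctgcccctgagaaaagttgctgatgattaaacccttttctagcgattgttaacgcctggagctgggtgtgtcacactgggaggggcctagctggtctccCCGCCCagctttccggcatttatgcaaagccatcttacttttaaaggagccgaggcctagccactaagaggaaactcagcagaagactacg
Inhbb: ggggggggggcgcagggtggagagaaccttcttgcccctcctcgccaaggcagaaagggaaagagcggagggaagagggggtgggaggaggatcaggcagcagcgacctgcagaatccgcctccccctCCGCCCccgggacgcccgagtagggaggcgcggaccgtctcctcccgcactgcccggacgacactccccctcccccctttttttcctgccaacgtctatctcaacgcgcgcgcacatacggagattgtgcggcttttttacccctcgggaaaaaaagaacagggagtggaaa

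The 5 promoters had little in common beyond a GC box. Nbea had 2 GC boxes, Trim59 had 4 with a CCAAT box, Shox2 had 1 with the only TATA box of the 5, and Trim27 and Inhbb had 1 GC box each. A GC box is present in 35.7% of all 32851 promoters of the same length, a CCAAT box in 37.4% and a TATA box in 13.6%. G and C made up 76.7% of the bases in Trim59 and 75% in Nbea, against 64.3% in Inhbb, 53.3% in Shox2 and 51% in Trim27, with a median of 52.7% over all promoters. A match is a description of these letters and not a bound site.

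On chromosome 3, many genes high in clone 1D lay within 1 stretch of neighbouring measured genes. Genes were placed in their order on GRCm38.p6, which put 9421 of them on chromosomes. Of 457 measured genes on chromosome 3, 46 lay at least 0.5 log2 units above the other clones' median and 5 below, and 16 against 0 did so at 1 log2 unit. A stretch of 47 measured genes reaching Ufm1 at one end and Gask1b at the other held 23 genes at least 0.5 log2 units above and none below. The same 47 genes held 2, 4, 1 and 5 such higher genes in clones 11B, 20B, 30 and 42. The median difference over the stretch was 0.48 in clone 1D, against -0.02, 0.00214, -0.19 and 0.0072 in clones 11B, 20B, 30 and 42. The stretch was found by its values, by a window of 11 genes with a median of at least 0.35, so these counts describe it and test nothing.

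The stretch held 11 of the 86 genes above the median and 6 of the 20 above every clone: Alg5, Nbea, Shox2, Trim59, Kpna4 and Nmd3. It holds 0.499% of the placed genes. Outside it, 75 genes lay above the median and 14 above every clone. Its other members past 1 log2 unit were Spg20 (1.16), Rap2b, a small GTPase (1.22), Gmps, the GMP synthase (1.54), Tiparp (1.58) and Ccnl1, a cyclin of RNA splicing (1.49). Genes between them included the helicase Dhx36 (0.90), the splicing factor Mbnl1 (0.74), the condensin subunit Smc4 (0.67) and Pdcd10 (0.62). Not all genes of the stretch were high. Ptx3, Gfm1, Lxn and Ift80, all between Ccnl1 and Smc4, lay within 0.01 log2 units of the median of the other clones, and so did Postn and Golim4.

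**Figure D4:**
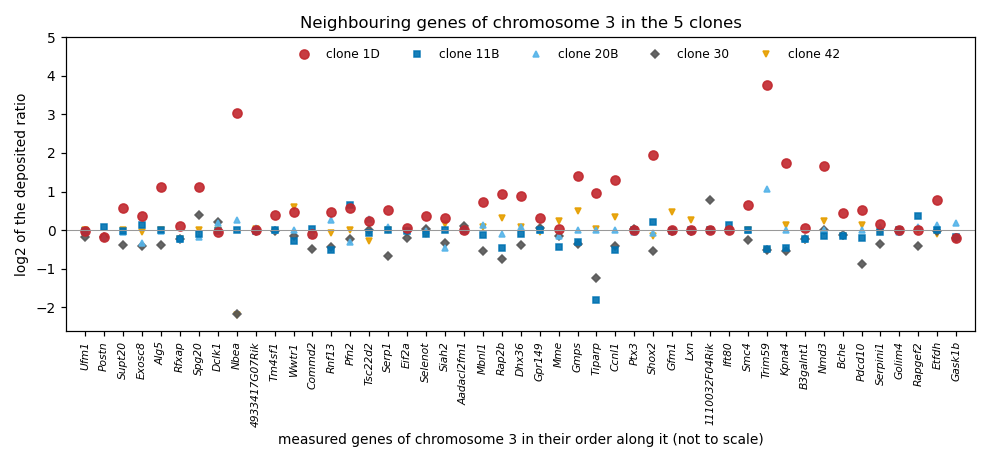
Log2 of the deposited ratio (y axis) in the 5 clones for the 47 measured genes of the chromosome 3 stretch, in their order along the chromosome and not to scale (x axis). Clone 1D lies above the other clones at Nbea, Shox2, Trim59, Kpna4 and Nmd3 and among them at genes such as Ptx3 and Ift80.

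Other chromosomes also leaned to one side. On chromosome 18, 35 of 233 genes lay at least 0.5 log2 units above and 4 below, and on chromosome 16, 34 of 313 lay above and 3 below. Chromosome 10 leaned the other way, with 9 of 466 genes above and 44 below. In percent of genes at least 0.5 log2 units above, chromosome 18 had 15.02% in clone 1D, against 2.15% to 9.44% in the other clones. Chromosome 16 had 10.9% in clone 1D, against 9.27% in clone 20B and 5.11% to 8.63% in clones 11B, 30 and 42. As far below on chromosome 16 lay 12.1% in clone 30 and 13.1% in clone 42, against 0.958% to 4.47% in clones 1D, 11B and 20B. In percent of genes at least 0.5 log2 units below, chromosome 10 had 9.44% in clone 1D, against 1.93% to 4.72%. By the window rule clone 1D had 14 stretches above and 2 below, against 13 and 3 in clone 11B, 11 and 0 in clone 20B, 17 and 24 in clone 30, and 20 and 9 in clone 42. Such stretches were thus found in every clone.

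Chromosome 13 was split. The 34 measured genes between Larp4b and Zkscan3, both included, had a median difference of -0.10. They held 2 genes at least 0.5 log2 units above and 12 below, among the latter Trim27, Stard3nl and Rala. The 304 genes after Zkscan3 held 47 above and 6 below. Over the whole chromosome, 50 of 349 genes (14.3%) lay above in clone 1D, against 53 (15.2%) in clone 42. This division was chosen after the values were seen. Beyond it, Sfxn1, a mitochondrial serine carrier, lay 1.10 log2 units above, Thoc3, of the mRNA export complex, 1.23 and Tspan17, a tetraspanin, 1.06. On chromosome 18, Galnt1, Slc39a6 and Ercc3 lay within 1 stretch of 21 genes, of which 9 lay at least 0.5 log2 units above and 0 below. On chromosome 10, Sarnp and Dnajc14 (1.17 log2 units below) lay in a stretch of 13 genes that also held Rps26 (0.71 below), Dgka (0.85 below) and Pa2g4 (0.58 below).

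Gene lists shifted little as wholes. Of 37 lists, 36 had a median difference within 0.1 log2 units of 0, between -0.13 for smooth muscle and pericyte genes and 0.08 for unfolded protein and integrated stress response genes. The median over all genes was 0.0014. A member's value rests on the mean over its measured probe sets, which can disagree. In most lists the members that stood out were few, and their shares are read against 5.57% of all genes at least 0.5 log2 units above and 2.53% below.

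**Figure D5:**
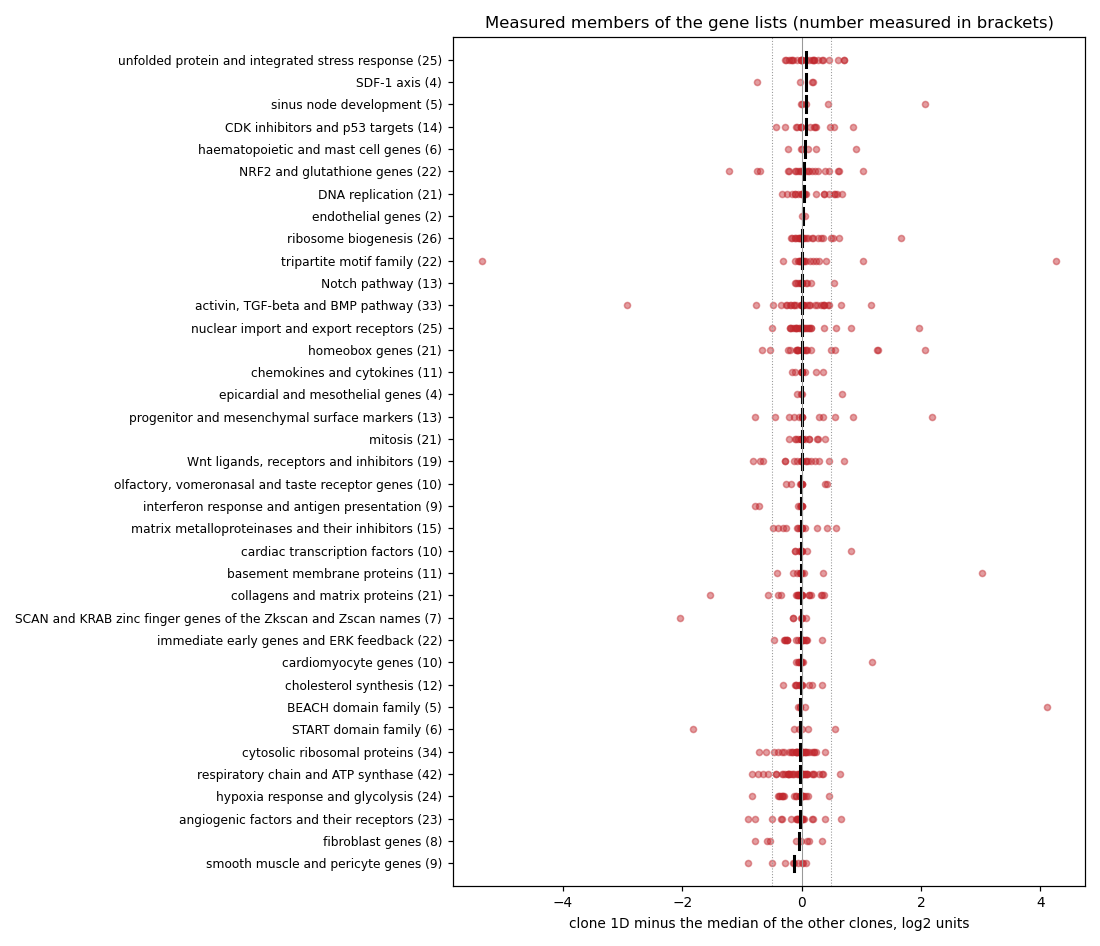
Difference of clone 1D from the median of the other clones (x axis, log2 units) for each measured member (points) of the 37 gene lists (y axis, number measured in brackets), with the list median as a black bar. List medians lie between -0.13 and 0.08, and single members such as Nbea, Trim59, Lama5, Inhbb and Trim27 lie far outside the dotted lines at 0.5 log2 units.

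Cxcl12 in clone 1D was close to the middle of the other clones. It had ratios of 0.997 and 0.984 in clone 1D on its 2 measured probe sets, against 1.889 and 2.780 in clone 11B, 0.307 and 0.974 in clone 30, and 0.987 to 1.056 in clones 20B and 42. Clone 1D thus lay in the middle of the series, 0.03 log2 units below the median, with clone 11B above it and clone 30 below. Ackr3, the other receptor, and Dpp4, the protease that inactivates SDF-1, lay 0.19 and 0.18 log2 units above. Mif, a cytokine that also binds Cxcr4, lay 0.74 below, with clone 1D the lowest of the 5, and was the only 1 of the 4 measured genes of the list (25%) past 0.5 log2 units. Cxcr4 was flat, at 0.776 in clone 1D, against 0.768 to 0.779.

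In the activin, TGF-beta and BMP pathway, 33 of 45 listed genes were measured, with 2 at least 0.5 log2 units above, 2 below and a median of 0.0079. Of the ligand genes, 1 lay far below and 1 above, and Inhba, Bmp2, Tgfb2 and Tgfb3 lay within 0.5 log2 units. Inhbb lay 2.92 log2 units below, while Tgfb1, which encodes TGF-beta 1, had 1.705 in clone 1D, against 1.000, 1.062, 0.571 and 0.578 in clones 11B, 20B, 30 and 42. Among the intracellular members, Smad5, which carries BMP signals, lay 0.65 above, and Smad6, an inhibitor of BMP signalling, lay 0.75 below. Clone 42 was lower in Smad6 (0.684 in clone 1D, against 0.502).

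Of the angiogenic factors and receptors, 23 of 37 were measured, with 1 at least 0.5 log2 units above and 3 below (median -0.03). Fgf7, a growth factor for epithelium, lay 0.66 above, and the receptors Fgfr2 and Pdgfra lay 0.90 and 0.78 below. In the hypoxia response and glycolysis list, 24 of 35 were measured, with 0 above, 1 below and a median of -0.03. Hexokinase 1 (Hk1) had 0.562 and 0.630 in clone 1D on 2 probe sets, against 2.111 and 2.451 in clone 11B and 0.436 and 0.563 in clone 30, so clone 1D was not the lowest. The glucose transporter Slc2a1 and Hk2 lay 0.39 and 0.37 below. Hif1a, the oxygen-regulated factor, lay 0.46 above, on 1 of its 3 measured probe sets only: that one lay 1.41 above and the others within 0.01 of the median.

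Matrix lists had few members apart. Of 35 genes for collagens and matrix proteins, 21 were measured, with 0 at least 0.5 log2 units above and 2 below: Loxl1 (1.53) and the proteoglycan Bgn (0.56). Clone 42 was far lower in Bgn, with log2 values of -0.41 in clone 1D and -1.97 in clone 42. Of 21 basement membrane genes, 11 were measured and only Lama5 passed 0.5 log2 units. Of 22 metalloproteinase and inhibitor genes, 15 were measured, and Timp1, an inhibitor, lay 0.57 above while none lay 0.5 below.

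Markers of other cell types gave no common shift. Smooth muscle and pericyte genes had the lowest median, -0.13, over 9 of 15 measured genes. Smtn, encoding smoothelin, lay 0.90 below, Tagln 0.49 below, and Acta2, smooth muscle actin, 0.14 below; clone 1D was the lowest of the 5 in each. Of 20 cardiomyocyte genes 10 were measured, and 9 lay within 0.09 log2 units while Tnnc1 lay 1.17 above. Endothelial genes were measured for 2 of 15, Eng and Egfl7, at 0.00073 and 0.05. Haematopoietic and mast cell genes were measured for 6 of 16, of which Tpsb2, a mast cell tryptase, lay 0.91 above. Its probe set was divided by a floor and counted as measured only because clone 1D lay above a ratio of 1. It gave 1.236 in clone 1D, against 0.657 to 0.870 in the other clones, and the other Tpsb2 probe set was flat. Of 15 epicardial and mesothelial genes 4 were measured, and the keratin Krt8 lay 0.67 above, under clone 30. Of 15 fibroblast genes 8 were measured, with 0 at least 0.5 log2 units above and 3 below (37.5%): Pdgfra (0.78), Vim (0.58) and S100a4 (0.53). Clone 1D was not the lowest in Vim and S100a4. S100a4 had 0.725 in clone 1D, against 0.661 in clone 42, and the 3 Vim probe sets were also lower in clone 42. The Pdgfra probe set that carried most of the difference had 0.358 in clone 1D, against 0.304 in clone 20B. Levels cannot be summed from ratios, so the part of other cell types in these differences was not tested.

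Progenitor surface markers had 13 of 25 genes measured, 3 at least 0.5 log2 units above and 1 below, with a median of 0.00073. The 3 were Cd81 (2.19), the integrin Itgb1 (0.87) and Cd44, the hyaluronan receptor (0.56). In Itgb1 and Cd44 clone 1D did not stand apart, since clone 42 had the highest Itgb1 and clone 20B a nearly equal Cd44. Homeobox genes had 21 of 41 measured, 4 above and 2 below. Farthest from the other clones were Shox2, Prrx2 (1.29) and Dlx2 (1.27) above and Meis1 (0.67) below. Clone 11B was higher than clone 1D in Dlx2, with log2 values of 0.68 in clone 1D and 0.94 in clone 11B. In the short sinus node list, 5 of 15 genes were measured and only Shox2 passed 0.5 log2 units. Gja5, a gap junction gene, lay 0.44 above, while Hcn2 lay 0.07 above. The Gja5 probe set was divided by a floor and counted as measured only because clone 1D lay above a ratio of 1 (1.350, against 0.987 to 0.996). Of 20 cardiac transcription factors 10 were measured, and Mef2c lay 0.83 above. Its 4 measured probe sets disagreed, at 1.28, 1.26, 0.51 and 0.02. On the farthest of them clone 1D had 2.129, against 1.766 in clone 20B and 0.154 in clone 30.

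Among growth lists, DNA replication had 21 of 29 genes measured, 4 at least 0.5 log2 units above (19.0%) and 0 below, with a median of 0.04. The 4 were Rrm1 and Rrm2, subunits of ribonucleotide reductase (0.67 and 0.57), the clamp loader Rfc4 (0.60) and cyclin E1, Ccne1 (0.55). The value of Rrm1 came from 1 of its 2 measured probe sets, at 1.34, with the other at 0.0058. In Rfc4 clones 30 and 42 were low and clone 1D lay with clones 11B and 20B. Mitosis genes had 21 of 27 measured and 0 past 0.5 log2 units in either direction. CDK inhibitors and p53 targets had 14 of 23 measured, 2 above and 0 below: Mdm2, which degrades p53 (0.85), and Cdkn1b, which encodes p27 (0.55). The Cdkn1b probe sets disagreed, at 1.07 and -0.02. Ribosome biogenesis had 26 of 33 measured, 3 above and 0 below: Nmd3, Nop58 (0.62) and nucleolin, Ncl (0.53). The list of nuclear import and export receptors, which also holds Ran and its binding protein Ranbp1, had all 25 genes measured. Of these, 3 lay above and 0 below: Kpna4, Ranbp1 (0.82) and Ipo11 (0.58). Clone 30 was higher in Ipo11 (1.265 in clone 1D, against 1.426).

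Stress and metabolic lists gave mixed values. Of 27 NRF2 and glutathione genes 22 were measured, 3 at least 0.5 log2 units above and 3 below (13.6% each), with a median of 0.05. Hmox1 (1.22), the extracellular superoxide dismutase Sod3 (0.75) and the lipid peroxidase Gpx4 (0.69) lay below, and Gsta3 (1.04) above. The other members above, named after their values were seen, were Gclm, a subunit of the enzyme that starts glutathione synthesis (0.63), and the quinone reductase Nqo1 (0.62). The list thus held well-known targets of 1 factor, NRF2, on both sides. Unfolded protein and integrated stress response genes had 25 of 28 measured, 3 above and 0 below: the disulfide isomerase Pdia4 (0.71), the chaperone partner Dnajb11 (0.70) and calnexin, Canx (0.60). Dnajb11 was low in clones 30 and 42, and clone 20B was higher than clone 1D. Canx was slightly higher in clone 42, with log2 values of 0.25 in clone 1D and 0.29 in clone 42. Respiratory chain and ATP synthase genes had 42 of 45 measured, 1 above and 4 below. Atp5a1, an ATP synthase subunit, lay 0.64 above, and Ndufa4, Atp5d and Ndufs7 lay 0.83, 0.73 and 0.64 below. Clone 20B was lower in Ndufa4 (0.610 in clone 1D, against 0.554). Cytosolic ribosomal proteins had 34 of 66 measured, 0 above and 2 below: Rps26 (0.71) and Rps28 (0.60).

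Wnt genes had 19 of 33 measured, 1 above (5.26%) and 3 below (15.8%): the receptor Fzd1 (0.72) against the receptor Fzd2 (0.81), the inhibitor Sfrp4 (0.69) and the ligand Wnt7b (0.64). Clone 30 was lower than clone 1D on both Wnt7b probe sets. Notch genes had 13 of 21 measured, and Lfng, which modifies Notch, lay 0.54 above. Clone 42 was higher in Lfng on both probe sets (1.127 and 1.379 in clone 1D, against 1.154 and 1.477). Interferon and antigen presentation genes had 9 of 27 measured, with the proteasome subunit Psmb9 (0.78) and the protease Usp18 (0.71) below (22.2%). Immediate early, chemokine and cholesterol synthesis genes had 22 of 26, 11 of 25 and 12 of 25 measured, and none passed 0.5 log2 units. The olfactory, vomeronasal and taste receptor genes, which these cells should not use, had 10 of 77 measured, none past 0.5 log2 units. The highest of these, Olfr15, lay 0.42 above, on a probe set divided by a floor where only clone 1D lay above a ratio of 1.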

How the data were processed

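Total RNA of 5 clones, 1 array each, was measured on Affymetrix expression arrays. RMA and GCRMA, which summarise probe signals, were named without version or role, per the submitters' processing notes. The deposited values are ratios on a linear scale, as read from the values. Since the median over the arrays was exactly 1 or below 1 for every probe set and above 1 for 0 of them, each probe set is taken as divided by its own median or by a floor. That division is not given in the sources used here, and expression levels cannot be recovered.

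Probe sets were named from GEO's platform annotation through its Entrez identifiers, with symbols, gene order and promoters from RefSeq (GRCm38.p6). Among 45101 probe sets there were 34958 with 1 symbol, 932 with more and 9211 with none, and the 64 controls were not used for genes. Measured probe sets were those that varied by over 0.05 log2 units between clones and had either a median of exactly 1 or a clone above 1. Log2 ratios were averaged over a gene's measured probe sets. Lower genes needed a probe set whose median was exactly 1. Calculations used Python 3.11.15 and pandas 2.3.3 and were tested on simulated data.

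Genes were named by a rule: every gene at least 1 log2 unit beyond every clone, the 15 farthest above and below the median, genes whose 2 or more measured probe sets all passed 1 log2 unit, the SDF-1 and stem cell genes, up to 4 members of each list, and members of stretches. The members, lists and rules were chosen with earlier results of these data known; the window for stretches and the motifs were chosen after seeing the values. Alternatives were other choices of probe sets, filters, normalizations and clones.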

Additional observations from a re-analysis of the deposited data

How the results depend on the processing

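The higher counts depended on the processing more than the lower ones. When flat probe sets were averaged in, 32 genes lay at least 1 log2 unit above the other clones' median and 10 above every clone, in place of 86 and 20. With only the probe set of highest mean, which favours probe sets with 1 high array by construction, the counts were 201 and 67. With values below the floor raised to it, 13 genes lay above every clone. Leaving out 1 of the other clones in turn gave 71 to 141 genes above the median, 33 to 44 below, 21 to 39 above every clone and 13 to 18 below every clone, with the highest counts above without clone 20B. The remaining counts stayed within 1.5 times of 86, 30, 20 and 13 under every alternative run. Of the 86 genes above, 32 remained with every probe set averaged, 60 without clone 30, 67 without clone 11B and 69 to 85 under the other alternatives. Of 49 named genes past 1 log2 unit, 0 changed direction and 19 stayed past it in all 13 alternatives, Nbea, Shox2, Kpna4, Inhbb, Slc6a8 and Stard3nl among them; Trim27 and Trim59 stayed past it wherever they were measured. Zkscan3 stayed past it in 11 of 13. It lay 0.16 log2 units below the median on its probe set of highest mean, the only measured one left without probe sets that may cross-hybridize. Of 37 list medians, 32 stayed within 0.1 log2 units of 0 throughout, and that of smooth muscle and pericyte genes ran between -0.21 and -0.06. No paired analysis was possible because each clone has 1 array, and the number 1 given to each pairs nothing. With 1 array per clone, the spread between cultures is unknown.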

Other observations

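Probe sets without a single gene name also held differences. Of 1795 measured probe sets with no symbol, 17 lay at least 1 log2 unit above the other clones' median and 1 below (0.947% and 0.0557%). Of 459 with several symbols, 7 lay above and 3 below. Among 13953 measured probe sets with 1 symbol, 272 lay above and 67 below (1.95% and 0.48%). The unnamed probe set farthest above had a ratio of 3.765 in clone 1D, against 1.000, 1.177, 0.702 and 0.410 in clones 11B, 20B, 30 and 42. The next unnamed one had 3.490 in clone 1D, against 0.981, 1.601, 0.730 and 1.000. Clone 1D was the highest of the 5 in both. The unnamed probe set below had 0.494 in clone 1D, against 1.202, 1.214, 0.993 and 1.000. These probe sets are unnamed in the annotation used here and were picked after their values were seen.

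Genes grouped with the genes set apart, by a shared domain or only by name, did not follow them as groups. Of 33 tripartite motif genes, 22 were measured, and besides Trim59 and Trim27 only Trim2, a ubiquitin ligase, passed 0.5 log2 units, at 1.03 above. The list of 14 START domain genes holds Stard3nl by its name only, so it says nothing of a domain shared with Stard3nl. Of the 14, 6 were measured, and besides Stard3nl the ceramide carrier Cert1 lay 0.55 above. Clone 42 was as high in Cert1, with log2 values of 0.50 in clone 1D and 0.51 in clone 42. Of 21 Zkscan and Zscan genes, 7 were measured, and only Zkscan3 passed 0.5 log2 units.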
